A study of Homo sapiens with 4 samples.

Results

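De novo purine and pyrimidine synthesis was described through 10 listed genes, PPAT, GART, PFAS, PAICS, ADSL, ATIC, IMPDH1, IMPDH2, CAD and UMPS, chosen by name. Of these, 8 were analysed, with 10 transcript rows out of 14540 rows for 12153 genes, and ADSL and UMPS were not analysed here. For a gene with several rows, the row with the highest summed count stands for it below. These genes and the gene lists below were chosen with earlier results of these data known, so their shares are descriptive. The cells were PLC/PRF/5, an established human hepatocellular carcinoma line, grown in high-glucose DMEM. The groups were PLC-shUSP22, with lentiviral interference against USP22 (2 libraries), and PLC-NC, the control (2 libraries). Hypoxia (1% oxygen, 5% carbon dioxide, 48 h) was applied to both groups, so no library shows these genes at ambient oxygen. USP22 is a ubiquitin-specific protease of the SAGA coactivator complex, and the comparison asks how hypoxic hepatoma cells with less of it differ from controls. The labels name neither the hairpin sequence nor separate cultures behind the replicates. The p-values therefore rest on spread between these libraries, largely pooled over rows, and this spread may be technical.

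Proliferating cells rely on making nucleotides from small precursors. Purines are built stepwise on the sugar PRPP, with nitrogen from glutamine, glycine and aspartate and formyl groups from folate, until inosine monophosphate (IMP) is formed. From IMP one branch leads to adenine and the other to guanine nucleotides. Pyrimidines are built as a free ring that is joined to PRPP late, and one of their steps, that of DHODH, passes electrons to the mitochondrial respiratory chain, which ends at oxygen.

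The targeted gene had 5438 and 7683 counts in PLC-shUSP22 libraries against 46513 and 41607 counts in PLC-NC libraries, a level of 14.6% of control (USP22, log2 fold change −2.77 ± 0.17 SE, adjusted p = 1.36e-06, edgeR). Library totals lay between 15027209 and 17194929 counts. Of 12 hepatocyte and hepatoma markers all had a row, and their summed level was 45033 and 35462 CPM in PLC-shUSP22 against 30088 and 28017 CPM in PLC-NC libraries, with 5 of 12 higher and 0 lower in edgeR, DESeq2 and limma-voom alike (1 lower at an unadjusted p under 0.05). The higher sum rests on APOB, the apolipoprotein of secreted lipid particles. The other 11 markers summed to 17506 and 18832 CPM in PLC-shUSP22 and 18462 and 19221 CPM in PLC-NC libraries, which overlap. Most of that remainder is TF, with 14063 and 15353 CPM in PLC-shUSP22 against 16362 and 17025 CPM in PLC-NC libraries. The overlap therefore says little of the less abundant markers. The 5 called higher were APOB, AFP, FGB, KRT18 and APOH, and of the 12 markers 7 had a positive and 5 a negative log2 fold change. CPM are counts scaled to a common library size, with TMM factors. Of 14 markers of blood, endothelial and connective tissue cells, 9 had a row, summing to 78.1 and 70.3 CPM in PLC-shUSP22 against 72.9 and 81.3 CPM in PLC-NC libraries, and PTPRC, CD3E, CD14, DCN and ACTA2 were not analysed here. Of 7 tested, 1 was higher and 1 lower, which is near the shares over all tested rows. Of those rows 8.49% rose and 10.2% fell, shares that also stand beside the 5 of 12 above. The endothelial adhesion molecule PECAM1 had 28.2 and 22.3 CPM in PLC-shUSP22 against 14.8 and 10.1 CPM in PLC-NC libraries (adjusted p = 0.0185), and the globin gene HBB had 0 and 1 counts in PLC-shUSP22 against 45 and 40 counts in PLC-NC libraries (adjusted p = 0.0011). APOB, TF, AFP, FGB, KRT18, APOH, PECAM1 and HBB were named after their values were seen. The part of these markers in the results below was not tested.

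Transcripts of the enzymes PFAS, ATIC and IMPDH2 rose in USP22-depleted cells, to between 1.82 and 2.02 times the control level. CAD, the first enzyme of the pyrimidine route, had a fold of 1.72 that missed the threshold, and PPAT, the first committed enzyme of the purine route, was not among the genes that passed. Among the 8 genes, edgeR's quasi-likelihood test found 3 that rose and 0 that fell at an adjusted p of 0.05, and 5 did not pass. Over all 12337 tested rows 18.7% changed, of which the rows that rose were 8.49% and the rows that fell 10.2% of those tested. Without multiple-test adjustment 0 of the 8 genes fell at a p under 0.05 in edgeR, and 0 were called lower in DESeq2 or limma-voom. Over all tested rows 3893 had such an unadjusted p in edgeR, in either direction. Among the 4453 tested rows of genes with 1 RefSeq mRNA accession, which tend to hold more counts, 1906 had one. The 8 genes had a median log2 fold change of 0.65, against 0.0007 over all tested rows. The libraries of the groups did not overlap, with PLC-shUSP22 higher, for 5 of the 8 genes, a pattern found in 29.3% of all tested rows. They did not overlap with PLC-shUSP22 lower for 2 genes, PPAT and IMPDH1, a pattern found in 30.3% of all rows. In RNA from whole cultures, fewer cells that use a gene and less of its RNA per cell cannot be told apart.

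**Figure D1:**
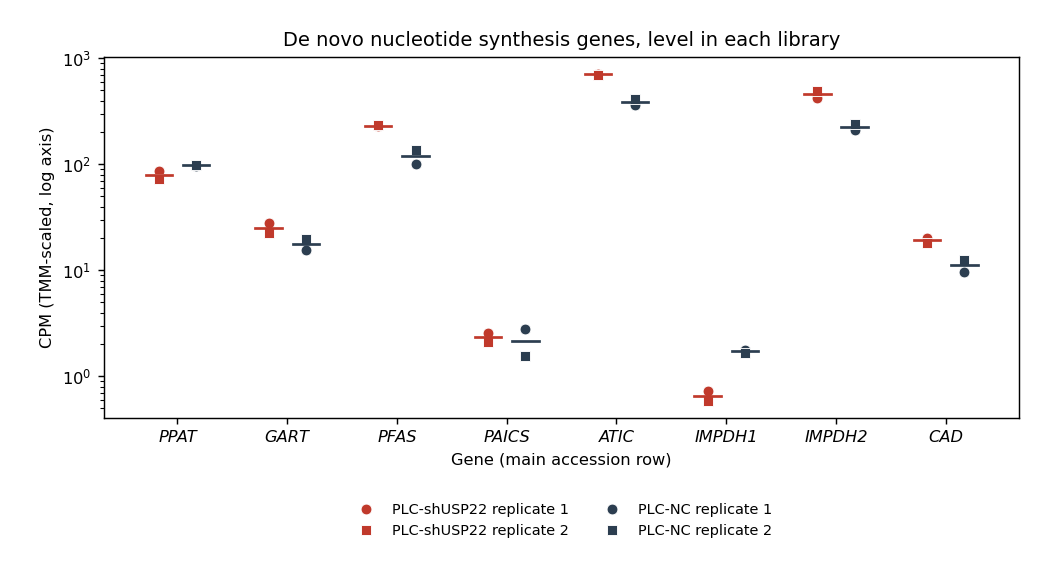
Level of each gene in each library, in CPM on a log axis, with PLC-shUSP22 libraries in red and PLC-NC libraries in dark blue (circles, replicate 1; squares, replicate 2; bars, group means). ATIC, IMPDH2 and PFAS sit higher in both PLC-shUSP22 libraries, PAICS overlaps, and PPAT and IMPDH1 sit lower.

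The purine route begins with PPAT, the amidotransferase that moves a nitrogen from glutamine to PRPP and is the feedback-regulated, committed step. Its transcript had 86.7 and 73.5 CPM in PLC-shUSP22 libraries against 96.7 and 99.1 CPM in PLC-NC libraries. Both knockdown libraries lay below both controls, by a margin that did not pass the test (log2 fold change −0.29 ± 0.18, adjusted p = 0.287). The fold was 0.818, with a range of 0.724 to 0.925 within 1 SE. In GENCODE 29, 3.29% of the bases of the PPAT transcript lie in exons of a long noncoding RNA on the opposite strand, and the kit named in the labels does not mark strand.

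GART carries several early steps of ring building in one protein, among them the one that follows PPAT, and its gene also makes a shorter mRNA for that step alone. The row with the most counts, NM_175085.2, was the shorter one, with 2149 bases in 11 exons in its GENCODE 29 model, against 3490 bases in 22 exons for NM_001136005.1. The shorter row had 28.0 and 22.3 CPM in PLC-shUSP22 against 15.4 and 19.8 CPM in PLC-NC libraries. The groups did not overlap, but the difference did not pass (log2 fold change 0.52 ± 0.25, adjusted p = 0.174). The longer row had 15 and 11 counts in PLC-shUSP22 against 26 and 4 counts in PLC-NC libraries, with the control libraries on either side of the knockdown ones (adjusted p = 0.901). It also shares 6.45% of its bases with exons of SON on the opposite strand. The RefSeq table of GRCh38.p14 lists 4 mRNA accessions for GART, so neither row gives the level of the gene as a whole.

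PFAS, a large glutamine-dependent enzyme that catalyses the step between those of GART, had 229 and 234 CPM in PLC-shUSP22 libraries against 101 and 137 CPM in PLC-NC libraries. The knockdown libraries were nearly equal, while the controls spread more widely, and the groups stood well apart. The transcript rose 1.95-fold (log2 fold change 0.96 ± 0.18, adjusted p = 0.00282). Leaving out either control library moved the log2 fold change to 0.76 (PLC-NC replicate 1 left out) or 1.22 (PLC-NC replicate 2 left out). PFAS has a single RefSeq mRNA accession, and no base of its model lies in an exon of another gene.

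PAICS, a bifunctional enzyme of the middle of the route, had few counts in its only row. It had 39 and 36 counts in PLC-shUSP22 libraries and 44 and 25 counts in PLC-NC libraries. The knockdown values fell between the control values (log2 fold change 0.11 ± 0.51, adjusted p = 0.912), and the sign turned when PLC-shUSP22 replicate 1 (−0.0071) or PLC-NC replicate 2 (−0.23) was left out. RefSeq lists 6 mRNA accessions for PAICS, and the row, NM_006452.3, is 1 of them. With so few counts in 1 accession, the row gives no measure of the whole gene.

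ATIC closes the purine ring, adding the last formyl group and forming IMP. It was the most abundant of the genes, with 10879 and 11947 counts in PLC-shUSP22 against 5727 and 6721 counts in PLC-NC libraries. In CPM these were 719 and 696 in PLC-shUSP22 against 362 and 416 in PLC-NC libraries, so the groups were separated by far more than the spread within either. The transcript rose 1.82-fold (log2 fold change 0.86 ± 0.15, adjusted p = 0.00203). ATIC has a single RefSeq mRNA accession and no exonic overlap with another gene in GENCODE 29.

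IMP dehydrogenase is the rate-limiting enzyme of the guanine branch and exists as 2 isozymes, IMPDH1, the form of resting cells and retina, and IMPDH2, the form induced in dividing cells. IMPDH2 had 427 and 490 CPM in PLC-shUSP22 libraries against 212 and 242 CPM in PLC-NC libraries, with no overlap. It rose 2.02-fold (log2 fold change 1.02 ± 0.16, adjusted p = 0.00099), the largest increase among the 8 genes in this fit. RefSeq lists 4 mRNA accessions for IMPDH2 and 1 row was analysed, so the row does not give the level of the whole gene. An antisense transcript covers 4.57% of the bases of its model, and reads of the pair could not be separated in these libraries. IMPDH1 had 11 and 10 counts in PLC-shUSP22 against 28 and 27 counts in PLC-NC libraries in the row NM_001102605.1. Those values do not overlap, but with so few counts the log2 fold change of −1.38 ± 0.67 did not pass (adjusted p = 0.178). The other IMPDH1 row, NM_001304521.1, had 5 and 4 counts in PLC-shUSP22 against 9 and 5 counts in PLC-NC libraries and was too low to test, and RefSeq lists 8 mRNA accessions for the gene.

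Within each library, counts of IMPDH2 were 403 and 602 times those of the summed IMPDH1 rows in PLC-shUSP22, against 90.6 and 122 times in PLC-NC. The log2 ratio was 2.23 higher in PLC-shUSP22, with an exact two-sided permutation p = 0.333, which is the smallest that 2 against 2 libraries can give. Because the rows of both IMPDH1 and IMPDH2 cover only some accessions of each gene, the ratio is not one of the whole genes' mRNAs. Its precision is set by the few IMPDH1 counts.

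CAD joins the first enzymes of pyrimidine synthesis, carbamoyl-phosphate synthetase, aspartate transcarbamylase and dihydroorotase, in one protein. It had 304 and 314 counts in PLC-shUSP22 against 154 and 203 counts in PLC-NC libraries. Its level was 20.1 and 18.3 CPM in PLC-shUSP22 against 9.72 and 12.6 CPM in PLC-NC libraries. Both knockdown libraries exceeded both controls, and the log2 fold change of 0.78 ± 0.26 lay just beyond the threshold (adjusted p = 0.0543). The call depended on the method: CAD passed with rows summed per gene (adjusted p = 0.0418), in DESeq2 (adjusted p = 0.0483), in limma-voom (adjusted p = 0.049) and under a filter of 5 CPM in 2 libraries (adjusted p = 0.0421). The authors' deposited table lists CAD with a log2 fold change of 0.80 (q-value 0.0106). For IMPDH2, ATIC and PFAS the authors' deposited table gives 1.04, 0.88 and 0.98 with q-values of 1.01e-12, 1.25e-11 and 6.76e-08.

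**Figure D2:**
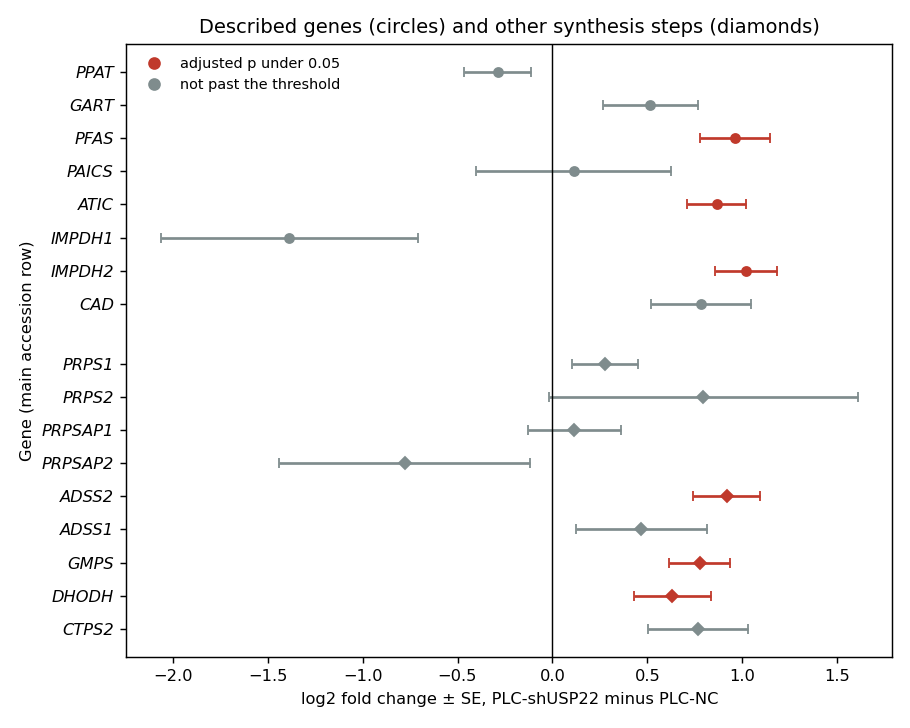
Log2 fold change with its standard error, PLC-shUSP22 minus PLC-NC, of the 8 genes (circles) and of 9 other genes of the route (diamonds), red where the adjusted p was under 0.05. Most points with small errors lie to the right of 0, and PPAT lies to the left.

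Proportions between steps were also compared within each library, a measure free of library scaling. Counts of ATIC were 8.30 and 9.46 times those of PPAT in PLC-shUSP22 libraries against 3.74 and 4.20 times in PLC-NC libraries. Counts of IMPDH2 were 4.92 and 6.67 times those of PPAT in PLC-shUSP22 against 2.19 and 2.44 times in PLC-NC libraries. Counts of PFAS were 2.65 and 3.17 times those of PPAT in PLC-shUSP22 and 1.04 and 1.38 times in PLC-NC. For each of these ratios the groups were apart, with an exact two-sided permutation p = 0.333, the smallest possible here.

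Levels of different genes were set side by side as CPM per kilobase of the GENCODE 29 transcript (RPKM). ATIC was highest, with 320 ± 7.52 RPKM in PLC-shUSP22 and 176 ± 17.3 RPKM in PLC-NC cells (SD, n = 2 each). IMPDH2 followed with 279 ± 27.5 RPKM in PLC-shUSP22 and 138 ± 12.8 RPKM in PLC-NC cells, and its libraries lay below those of ATIC within each group. PFAS had 43.1 ± 0.53 RPKM in PLC-shUSP22 and 22.1 ± 4.77 RPKM in PLC-NC cells, and PPAT had 21.8 ± 2.52 RPKM in PLC-shUSP22 and 26.6 ± 0.46 RPKM in PLC-NC cells. The order of this pair differed between the groups, with PFAS above PPAT in both PLC-shUSP22 libraries and below it in both PLC-NC libraries. The rows of GART, CAD, PAICS and IMPDH1 came last, with means of 11.7, 2.64, 0.700 and 0.254 RPKM in PLC-shUSP22 and of 8.19, 1.53, 0.647 and 0.666 RPKM in PLC-NC cells. In control cells PAICS and IMPDH1 did not differ beyond the spread of PAICS. These 4 genes have several accessions each, as does IMPDH2 (4 accessions, 1 row), whose row was well counted. Over the table, rows of such genes tended to hold fewer counts: the median row sum was 2622 for genes with 1 accession, 311.5 with 2 and 118 with 3 or more.

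Common promoter elements were searched for in the start regions of these genes. The E-box (CACGTG, bound by MYC, MAX and USF factors), the CCAAT box (CCAAT, bound by NF-Y) and the GC box (GGGCGG, bound by SP factors) were searched on both strands. The windows run from 250 bases before to 50 bases after a RefSeq start in GRCh38.p14, and they are shown for PFAS and ATIC, which rose, for PPAT, which did not, and for CAD, near the threshold. No window is shown for IMPDH2. Capitals mark E-boxes, CCAAT boxes and GC boxes in either orientation. The windows are chr4:56435566-56435865 (minus strand) for PPAT, chr17:8249039-8249338 (plus strand) for PFAS, chr2:215311809-215312108 (plus strand) for ATIC and chr2:27217119-27217418 (plus strand) for CAD.
PPAT: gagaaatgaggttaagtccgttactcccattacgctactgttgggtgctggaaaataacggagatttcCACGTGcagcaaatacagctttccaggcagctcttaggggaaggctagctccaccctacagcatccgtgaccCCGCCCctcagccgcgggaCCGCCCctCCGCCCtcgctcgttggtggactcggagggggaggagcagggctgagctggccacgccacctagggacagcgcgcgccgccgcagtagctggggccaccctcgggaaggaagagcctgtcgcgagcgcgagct
PFAS: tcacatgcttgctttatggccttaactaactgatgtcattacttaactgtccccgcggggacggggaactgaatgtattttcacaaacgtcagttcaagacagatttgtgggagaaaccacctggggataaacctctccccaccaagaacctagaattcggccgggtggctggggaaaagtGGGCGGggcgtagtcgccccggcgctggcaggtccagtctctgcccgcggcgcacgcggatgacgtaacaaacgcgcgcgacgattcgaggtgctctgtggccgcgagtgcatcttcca
ATIC: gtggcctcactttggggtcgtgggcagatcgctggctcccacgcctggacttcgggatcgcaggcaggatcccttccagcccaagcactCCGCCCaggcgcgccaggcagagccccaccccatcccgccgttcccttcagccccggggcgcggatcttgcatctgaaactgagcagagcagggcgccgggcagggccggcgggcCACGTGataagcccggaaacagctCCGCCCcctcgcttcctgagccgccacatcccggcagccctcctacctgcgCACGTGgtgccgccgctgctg
CAD: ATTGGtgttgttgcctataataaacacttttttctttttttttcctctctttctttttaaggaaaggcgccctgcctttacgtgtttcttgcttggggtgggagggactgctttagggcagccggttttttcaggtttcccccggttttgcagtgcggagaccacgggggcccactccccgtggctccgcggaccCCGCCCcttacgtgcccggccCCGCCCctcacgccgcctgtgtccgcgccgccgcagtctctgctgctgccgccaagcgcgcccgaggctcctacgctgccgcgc

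The ATIC window holds 2 E-boxes and 2 GC boxes, and the PPAT window 1 E-box and 3 GC boxes. The PFAS window holds 1 GC box only, and the CAD window 2 GC boxes and 1 CCAAT box. A shorter core, ACGTG, was searched as well and is not capitalised by itself. It occurs 2 times in the CAD window, lies only within the E-boxes in the PPAT and ATIC windows, and is absent from the PFAS window. Of all windows 21.4% hold it. An E-box is present in 7.26% of 35116 such windows of all genes, a CCAAT box in 34.6% and a GC box in 45.0%. PAICS has 3 starts in the table, and 236 bases of one of its windows are those of the PPAT window on the opposite strand. From that start the genes are transcribed away from each other. This does not hold for the PAICS start with the window chr4:56410257-56410556 (plus strand), which lies on the other side of the PPAT start. Binding to these elements was not measured, and any part of them in the changes was not tested.

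Some enzymes of the steps between and after the listed ones rose as well. Of 9 other genes of the route that were tested, 3 rose and 0 fell in edgeR, as in DESeq2 and limma-voom, and 0 fell at an unadjusted p under 0.05. Their median log2 fold change was 0.63. The share that rose was 33.3%, against 8.49% of all tested rows, of which 10.2% fell. GMPS, which turns xanthosine monophosphate into GMP after IMPDH, had 284 and 258 CPM in PLC-shUSP22 against 152 and 165 CPM in PLC-NC libraries (log2 fold change 0.77 ± 0.16, adjusted p = 0.00499). ADSS2 (ADSS in the table), which opens the adenine branch, had 109 and 101 CPM in PLC-shUSP22 against 58.1 and 53.1 CPM in PLC-NC libraries (0.92 ± 0.18, adjusted p = 0.0033). DHODH, the mitochondrial step of pyrimidine synthesis, had 44.8 and 45.9 CPM in PLC-shUSP22 against 29.3 and 29.2 CPM in PLC-NC libraries (0.63 ± 0.20, adjusted p = 0.0446). PRPS1, which supplies PRPP, had 88.1 and 94.5 CPM in PLC-shUSP22 against 73.1 and 77.9 CPM in PLC-NC libraries and did not pass (0.27 ± 0.18, adjusted p = 0.308). CTPS1 was not analysed here. In the purine route both branches after IMP held a gene that rose, and the entry genes PRPS1 and PPAT did not pass.

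Genes of DNA replication and division, cell processes that consume nucleotides, moved with these enzymes. Of 12 tested 7 rose and 0 fell in edgeR, DESeq2 and limma-voom, and 0 fell at an unadjusted p under 0.05. Their median log2 fold change was 0.88. The share that rose was 58.3%, against 8.49% of all tested rows, of which 10.2% fell. The list was written with earlier results of these data known, so this share is descriptive. The summed level of the 14 genes with a row was 3353 and 3422 CPM in PLC-shUSP22 against 1878 and 2166 CPM in PLC-NC libraries. MCM5, a subunit of the replicative helicase, had 244 and 318 CPM in PLC-shUSP22 against 93.8 and 140 CPM in PLC-NC libraries (log2 fold change 1.26 ± 0.21, adjusted p = 0.00125). MCM3, of the same complex, had 57.0 and 78.8 CPM in PLC-shUSP22 against 23.3 and 36.1 CPM in PLC-NC libraries (1.19 ± 0.25, adjusted p = 0.00476), and the topoisomerase TOP2A rose by 1.19 on the log2 scale. RefSeq lists 9 mRNA accessions for MCM3 and 1 row was analysed. Not all of the list moved this way: FEN1, CDC6 and E2F1, picked here from the abundant genes with their values in view, had log2 fold changes of 0.11, −0.28 and −0.13 and did not pass (adjusted p = 0.707, 0.326 and 0.744). The part of a difference in division in the levels of the synthesis enzymes was not tested. The summed level of the 8 synthesis genes was 1514 and 1536 CPM in PLC-shUSP22 against 800 and 929 CPM in PLC-NC libraries, most of it from ATIC and IMPDH2.

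**Figure D3:**
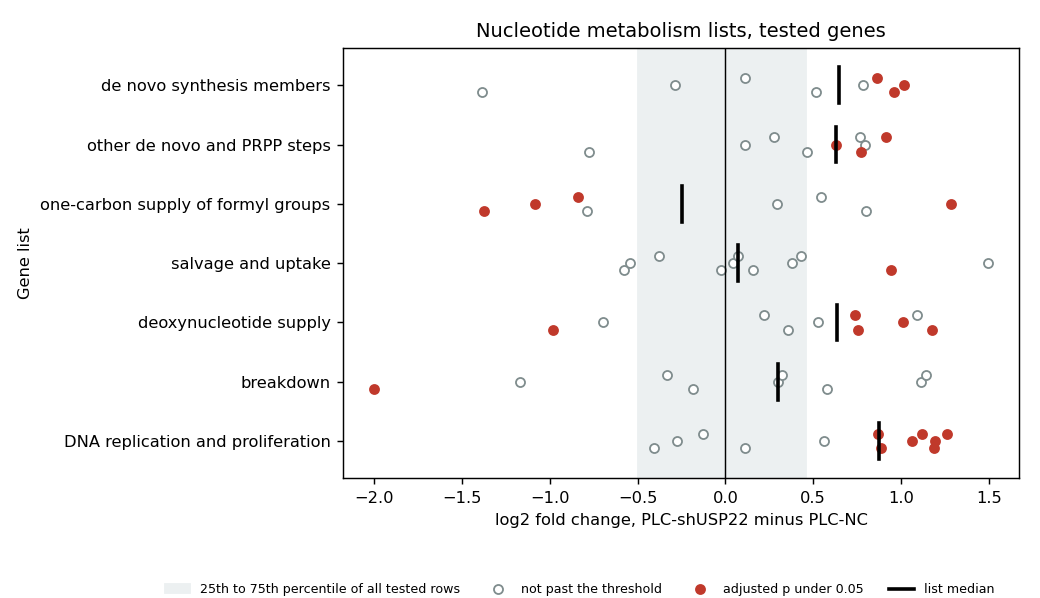
Log2 fold change, PLC-shUSP22 minus PLC-NC, of the tested genes of each list (filled red, adjusted p under 0.05; open, not past the threshold; bars, list medians; shading, the 25th to 75th percentile of all tested rows). The medians of the synthesis genes (0.65), the other steps (0.63), deoxynucleotide supply (0.63) and the replication genes (0.88) lie beyond the shaded range, whose upper end is 0.46.

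The directions of the 3 called genes held without each library in turn. Over those fits the log2 fold change lay between 0.92 and 1.15 for IMPDH2, between 0.77 and 0.99 for ATIC and between 0.76 and 1.22 for PFAS, and all 3 remained past the threshold. Against a minimum fold of 1.5 (edgeR's glmTreat) IMPDH2 alone passed (adjusted p = 0.0378).

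**Figure D4:**
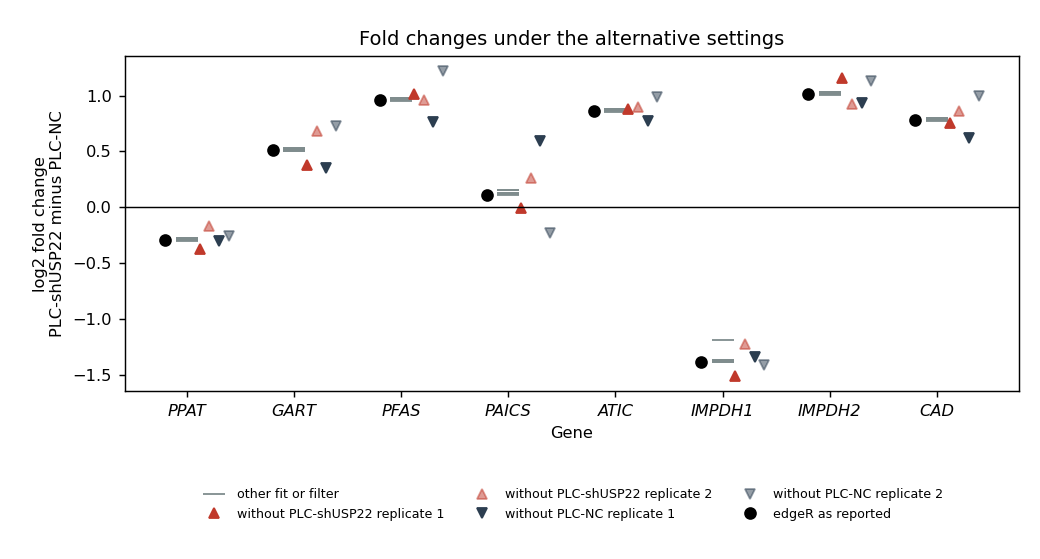
Log2 fold change, PLC-shUSP22 minus PLC-NC, of each gene as reported (black), under other fits and filters (grey bars) and with 1 library left out (triangles). IMPDH2, ATIC, PFAS and CAD stay above 0 and PPAT and IMPDH1 below 0 in every fit shown, while PAICS crosses 0.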

How the data were processed

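Polyadenylated RNA of 4 libraries (2 PLC-shUSP22, 2 PLC-NC) was sequenced after preparation with the NEBNext Ultra RNA kit, per the labels' protocols. The authors deposited raw counts per RefSeq mRNA accession, beside columns of their own for the log2 fold change, the p-value and the q-value (tool not given in the sources used here). HISAT2 2.1.0, HTSeq, bcl2fastq and the build hg19 appear in the submitters' processing notes. How reads shared by isoforms were counted is not given, so each row was read as a transcript.

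From the counts, rows were filtered with filterByExpr (minimum count 10), which kept 12337 and removed 2203. They were scaled by TMM and tested with edgeR 4.0.16's quasi-likelihood test (R 4.3.3), no covariate, Benjamini-Hochberg over all tested rows, threshold 0.05. The common biological coefficient of variation was 22.1%. The variance of each row was drawn towards that of all rows, with 11.2 prior degrees of freedom. An SE is the log2 fold change divided by the square root of F. The fit was tested on simulated data. Replicates differed beyond sampling noise (chi-square per degree of freedom 37.6 for PLC-shUSP22 and 19.7 for PLC-NC). Alternatives were DESeq2 1.42.0, limma-voom (limma 3.58.1), other filters and scaling, glmTreat, a replicate block, rows summed per gene and leaving out each library. Accession numbers per gene and promoters came from RefSeq (GRCh38.p14, 98.5% of accessions matched), and lengths and exon overlaps from GENCODE 29 (95.9% matched). No hg19 coordinates are given.

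Members and lists were chosen with earlier results of these data known. Named genes were all members, USP22, 5 fixed genes (PRPS1, DHODH, GMPS, CTPS1, HPRT1) and, per other list, up to 3 called genes of at least 10 CPM with the largest change. Lists were summarised by counts and medians, with no set test.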

Additional observations from a re-analysis of the deposited data

How the results depend on the processing

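Over 12 alternatives IMPDH2 stayed past the threshold in 12, ATIC in 11 and PFAS in 11, while CAD passed in 5 and PPAT and GART in none. Against a minimum fold of 1.5, 1 member passed in place of 3, ATIC (0.86, adjusted p = 0.122) and PFAS (0.96, adjusted p = 0.0857) did not pass, and over all rows 254 rose and 583 fell. CAD passed with rows summed per gene (0.80), in DESeq2 (0.80), in limma-voom (0.79), with a filter of 5 CPM in 2 libraries (0.77) and with the replicate number as a block (0.79, adjusted p = 0.0116), which made 4 members that rose. The block also called 1672 rows higher and 1859 lower, against 1047 and 1257 without it. The labels do not say that numbers pair libraries, and same-numbered libraries deviated together with a correlation of 0.11 over rows. With each library left out in turn, PAICS ranged from −0.23 to 0.60, CAD from 0.62 to 1.00 and the rows that rose from 685 (without PLC-NC replicate 1) to 1340. Such fits leave 1 library in an arm, assumed to vary like the other group. The IMPDH log2 ratio difference ranged from 1.94 to 2.52. The filter of 5 CPM gave no value for PAICS and IMPDH1, whose rows had few counts.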

Other observations

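Genes that feed or bypass de novo synthesis did not move as one group. In the list of one-carbon and serine genes, 8 were tested, of which 1 rose and 3 fell in edgeR and limma-voom (1 and 2 in DESeq2), with a median log2 fold change of −0.25. The share that rose was 12.5%, against 8.49% of all tested rows, of which 10.2% fell. MTHFD1, the cytosolic enzyme that makes the formyl donor of the purine ring, had 333 and 331 CPM in PLC-shUSP22 against 121 and 151 CPM in PLC-NC libraries (log2 fold change 1.29 ± 0.17, adjusted p = 0.000255). PSAT1 and PHGDH, enzymes of serine synthesis, fell, but PSPH, of the same route, did not pass. PSPH had 197 and 187 CPM in PLC-shUSP22 against 150 and 163 CPM in PLC-NC libraries (0.29 ± 0.16, adjusted p = 0.236). It was named after its values were seen, and its row is the only one for a gene with 21 RefSeq mRNA accessions. PSAT1 had 63.7 and 56.7 CPM in PLC-shUSP22 against 121 and 134 CPM in PLC-NC libraries (−1.08, adjusted p = 0.00112). PHGDH had 202 and 268 CPM in PLC-shUSP22 against 395 and 447 CPM in PLC-NC libraries (−0.84, adjusted p = 0.00521). MTHFD1L, the mitochondrial counterpart of MTHFD1, also fell in edgeR (−1.38 ± 0.43, adjusted p = 0.0421), with 35 and 27 counts in PLC-shUSP22 against 94 and 67 counts in PLC-NC libraries, but did not pass in DESeq2 (adjusted p = 0.0717). It lies under the 10 CPM set for naming genes and was named after its values were seen. RefSeq lists 12 mRNA accessions for MTHFD1L and 1 row was analysed, so the row does not give the level of the whole gene.

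Of 11 salvage and uptake genes tested 1 rose and 0 fell in edgeR, DESeq2 and limma-voom, with 0 lower at an unadjusted p under 0.05 and a median log2 fold change of 0.07. The share that rose, 9.09%, was near the 8.49% of all tested rows. UCK2, a uridine and cytidine kinase, had 209 and 248 CPM in PLC-shUSP22 against 103 and 134 CPM in PLC-NC libraries (0.94 ± 0.18, adjusted p = 0.00316). HPRT1, which recovers hypoxanthine and guanine, had 137 and 117 CPM in PLC-shUSP22 against 120 and 139 CPM in PLC-NC libraries and did not pass (adjusted p = 0.941). Among 10 tested genes of deoxynucleotide supply 4 rose and 1 fell, with a median of 0.63. Over all tested rows 8.49% rose and 10.2% fell. RRM1, the large subunit of ribonucleotide reductase, had 35.6 and 36.0 CPM in PLC-shUSP22 against 17.4 and 18.1 CPM in PLC-NC libraries (1.01 ± 0.22, adjusted p = 0.00641). RefSeq lists 4 mRNA accessions for RRM1 and 1 row was analysed. NME2, a nucleoside diphosphate kinase, rose (1.18, adjusted p = 0.0104) and GUK1, the guanylate kinase, fell (−0.98, adjusted p = 0.0118). For NME2 and GUK1, each value is that of the row with the most counts among 3 rows of a gene with 5 RefSeq mRNA accessions. The other rows of both genes are not described here. NME2 is similar in sequence to NME1, and how far reads could be told apart between them was not tested.

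Of 9 breakdown genes tested 0 rose and 1 fell in edgeR, DESeq2 and limma-voom, with 2 higher at an unadjusted p under 0.05 in edgeR. A fall in 1 of 9 is near the share over all tested rows, of which 10.2% fell. CDA, the cytidine deaminase of pyrimidine breakdown and salvage, had 18.4 and 16.9 CPM in PLC-shUSP22 against 65.9 and 75.8 CPM in PLC-NC libraries (a fold of 0.25, with 0.216 to 0.288 within 1 SE, adjusted p = 4.52e-05). CDA has a single RefSeq mRNA accession, and its fall was larger in size than any change among the 8 synthesis genes in the same fit.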
